A study of Danio rerio with 12 samples.

Results

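The genes described are 5 Cebp transcription factors (cebpa, cebpb, cebpd, cebpg and cebp1) and 5 genes of neutrophils (mpx, lyz, npsn, csf3r and ncf1), which are 10 of the 24782 genes in the deposited expression table, taken by their symbols. Polyadenylated RNA of whole zebrafish (Danio rerio) hearts was sequenced 7 days after surgery in fish 6 to 12 months old. The 4 groups, with 3 libraries each, were yap +/+ hearts (wild type) after sham surgery, yap +/+ hearts after cryoinjury, yap -/- hearts (mutant) after sham surgery and yap -/- hearts after cryoinjury. In both kinds of surgery the chest was opened under tricaine, and in cryoinjury the exposed ventricle was then touched with a steel probe cooled in liquid nitrogen. The labels name neither the yap allele nor whether a library is 1 heart or a pool, and they do not call replicates separate animals, so the spread behind each p-value may be technical. The set was selected on measured values, the FPKM of cebpa, which were higher in mutant than in wild-type sham hearts. The comparison of mutant with wild-type sham hearts is therefore given as a description, with no test, for every member, and so is cebpa in each comparison that holds sham libraries.

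The CCAAT/enhancer-binding proteins (C/EBPs) are leucine-zipper transcription factors that bind DNA as dimers. Cebpa and its relatives drive granulocyte formation, and in mammals C/EBPs also control genes of liver, fat, the acute-phase response and the epicardium, the cell sheet covering the heart. Neutrophils are short-lived granulocytes that reach a wound early and kill microbes with stored granule proteins and with oxidants made by the NADPH oxidase. They normally enter the injured zebrafish heart early and decline while macrophages remain.

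Values are FPKM, fragments counted relative to transcript length and to the library's total, so levels can be set side by side between genes. Tests used log2(FPKM + 1), and 13969 genes with a mean of 1 FPKM or more were tested, among them 7 of the 10 members. mpx, csf3r and cebp1 stood below that mean. yap1 was at 26.0 ± 4.48 FPKM (SD, n = 6) in wild type and 12.9 ± 1.65 FPKM (n = 6) in mutants, with no overlap. The heart muscle marker myl7 was high in every library, between 14277 and 34202 FPKM. Fragment totals were not used here, and steps between low values put the depth of 11 libraries at 0.812 to 1.19 times that of wild-type sham 1 and did not settle that of mutant sham 3. Mutant sham 1 and mutant cryoinjury 2 stood apart in composition, with ribosomal protein mRNAs at 40.2% and 33.1% of summed FPKM, against 13.8% to 21.1% in the other 10 libraries. Mutant sham 2 had the highest macrophage sum, with 2211 FPKM over 14 macrophage genes, and mutant sham 1 the lowest, with 185 FPKM. Such sums rest mostly on the most abundant genes. By the mean log2(FPKM + 1) of the 14 genes, relative to wild-type sham hearts, wild-type sham 1 (-0.474) was slightly below mutant sham 1 (-0.458). In whole hearts, fewer cells of a type and less RNA per cell cannot be told apart.

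Among the Cebp factors, cebpd was the most abundant, with a median of 191 FPKM over the 12 libraries (range 14.6 to 327). It was followed by cebpg at a median of 23.2 FPKM (14.3 to 32.6), cebpb at 15.5 FPKM (4.20 to 37.0) and cebpa at 11.1 FPKM (3.45 to 22.6). cebp1, a factor described in zebrafish granulocytes, had a median of 0.423 FPKM and was listed at 0 in wild-type sham 3 and mutant sham 1. The ranges of cebpg, cebpb and cebpa overlapped. cebpd lay above all 3 of them in every library other than wild-type sham 1, where it was at 14.6 FPKM and cebpg at 15.3 FPKM.

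cebpa (NCBI gene 140815), which encodes C/EBP alpha, a factor of granulocyte, liver and fat cell differentiation, had its lowest levels in wild-type sham hearts. Those 3 libraries stood at 3.45, 6.67 and 4.28 FPKM, and the wild-type cryoinjured libraries at 10.6, 11.7 and 10.1 FPKM. The mutant sham libraries stood at 9.46, 22.6 and 13.9 FPKM, and the mutant cryoinjured libraries at 16.9, 18.5 and 13.9 FPKM. The group means, from lowest to highest, were 4.80 ± 1.67 FPKM in wild-type sham, 10.8 ± 0.838 in wild-type cryoinjured, 15.3 ± 6.65 in mutant sham and 16.4 ± 2.35 in mutant cryoinjured hearts (SD, n = 3 each). Mutant sham hearts spanned the levels of both cryoinjured groups, so its mean was not separated from theirs by the spread, while the cryoinjured groups did not overlap each other. Mutant sham hearts were above wild-type sham hearts in all libraries (1.45 ± 0.29, log2 difference with SE), the value for which the gene was chosen.

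cebpb (NCBI gene 140814) encodes C/EBP beta, a factor of macrophages and of the inflammatory and acute-phase responses. It was at 4.20, 11.9 and 8.69 FPKM in wild-type sham hearts and at 15.2, 7.41 and 15.9 FPKM in wild-type cryoinjured hearts. In mutants it was at 12.2, 35.1 and 23.4 FPKM after sham surgery and at 37.0, 33.7 and 33.3 FPKM after cryoinjury. The 3 mutant cryoinjured libraries lay close together and above every wild-type library. Neighbouring groups in the order wild-type sham, wild-type cryoinjury and mutant sham overlapped.

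cebpd (NCBI gene 140817) encodes C/EBP delta, which in mammals is induced quickly by cytokines, glucocorticoids and stress. Wild-type sham hearts were at 14.6, 118 and 64.8 FPKM, below all other libraries. Wild-type cryoinjured hearts were at 215, 129 and 267 FPKM, mutant sham hearts at 327, 167 and 260 FPKM and mutant cryoinjured hearts at 131, 295 and 256 FPKM. These 3 groups overlapped widely. The highest level came from mutant sham 1, the library with the lowest macrophage sum and the lowest neutrophil sum. The second highest came from mutant cryoinjury 2, with the highest neutrophil sum (188 FPKM) and the second highest macrophage sum (1400 FPKM). Both libraries stood apart in ribosomal protein mRNA (40.2% and 33.1%). Which cells carried cebpd mRNA was not tested.

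cebpg (NCBI gene 140816) encodes C/EBP gamma, a widely expressed partner that lacks a strong activation domain and also pairs with Atf4. It varied least of the Cebp factors, with wild-type sham hearts at 15.3, 17.8 and 14.3 FPKM and wild-type cryoinjured hearts at 24.3, 19.1 and 25.9 FPKM. Mutant sham hearts were at 22.0, 32.6 and 19.5 FPKM, and mutant cryoinjured hearts at 28.7, 25.7 and 25.5 FPKM. Wild-type sham libraries were again the lowest group. cebp1 (NCBI gene 114453) was between 0 and 0.18 FPKM in wild-type sham hearts, 0.08 and 0.91 FPKM in wild-type cryoinjured hearts, 0 and 1.29 FPKM in mutant sham hearts, and 0.54 and 1.53 FPKM in mutant cryoinjured hearts.

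**Figure D1:**
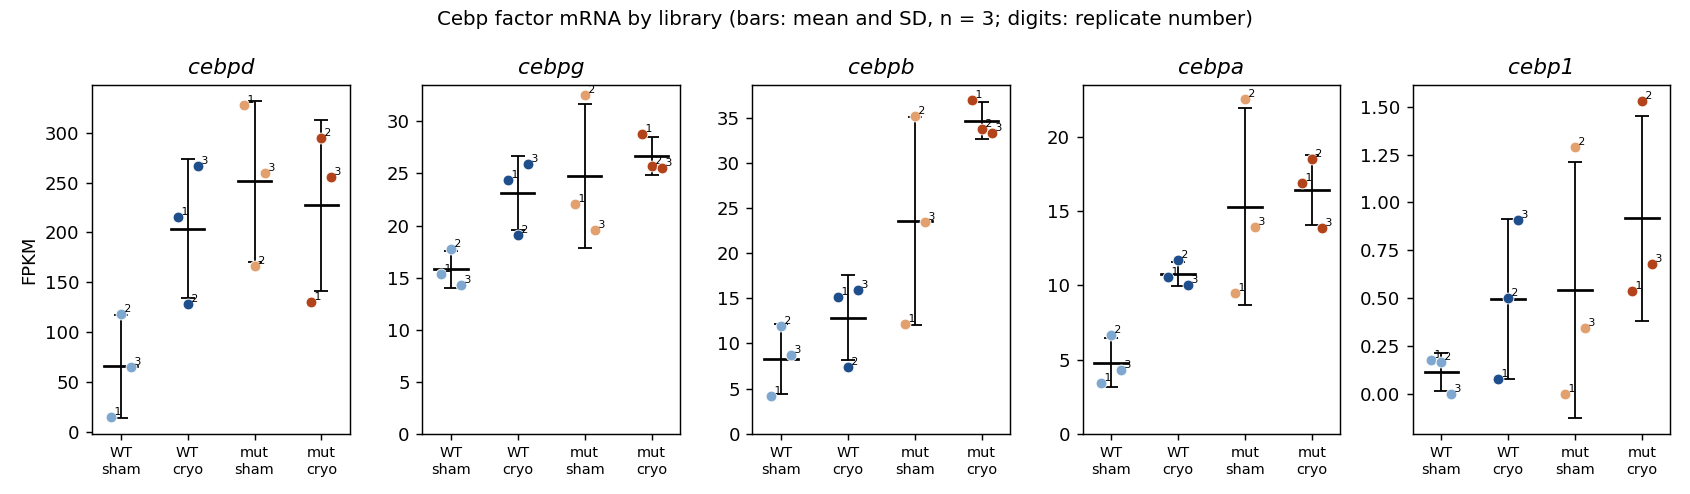
FPKM of the 5 Cebp factors (vertical axes, linear, 1 scale per gene) in the 4 groups; points are libraries with their replicate number, and bars give the mean and SD (n = 3). Wild-type sham hearts are the lowest group for each of cebpd, cebpg, cebpb and cebpa by mean, and mutant cryoinjured hearts lie at 33.3 to 37.0 FPKM of cebpb, above the wild-type libraries.

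In the comparison of mutant with wild-type sham hearts, from which cebpa was chosen, 4 of the 10 members (cebpa, cebpb, cebpd and cebpg) were higher with no overlap between libraries, and 0 were lower with none. Of all tested genes 7.01% were higher and 3.18% lower in this way, and nothing is read from that comparison here. 7 of the 10 members, and 5 of the 7 with a mean of 1 FPKM or more, had a difference above 0, as had 58.7% of tested genes. The log2 differences were 2.29 ± 0.62 (SE) for cebpd, 1.39 ± 0.41 for cebpb and 0.59 ± 0.22 for cebpg. lyz stood at -1.69 ± 1.15, npsn at -0.11 ± 0.93 and ncf1 at 0.57 ± 0.72, all with overlapping libraries. The sign of ncf1 turned without mutant sham 2 (-0.40), and that of npsn without mutant sham 1 (0.75) and without wild-type sham 1 (0.08) or 2 (0.06).

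In the comparison of mutant with wild-type hearts after cryoinjury, the differences rest on libraries that had no part in the choice of cebpa. The SE and p-values there draw on the spread within all 12 samples, the sham libraries included. Both cebpb and cebpa were higher in all 3 mutant libraries than in all 3 wild-type libraries, and these were 2 of the 7 tested members, against 3.06% of all tested genes (12.6% were lower without overlap). 9 of the 10 members, all but csf3r (-0.05), had a difference above 0, among them all 7 past the filter, as had 35.1% of tested genes. The difference of cebpb was 1.43 ± 0.41 (log2, SE; limma adjusted p = 0.873 over all tested genes), and it lay between 1.11 and 1.61 when single libraries were left out. The difference of cebpa was 0.56 ± 0.29 (adjusted p = 0.873), between 0.48 and 0.67 without single libraries. Neither passed the adjusted threshold of 0.05, which 0 of the 13969 tested genes (0%) passed in this comparison with limma. At an unadjusted p under 0.05, limma had 1 of the 7 tested members (cebpb) higher and 0 lower, against 171 genes higher (1.22%) and 532 lower (3.81%). cebpd (0.14 ± 0.62) and cebpg (0.21 ± 0.22) overlapped between genotypes (adjusted p = 0.968 and 0.885). cebpd stood at -0.16 without wild-type cryoinjury 2 and at -0.09 without mutant cryoinjury 2. The median tested gene was lower in mutants, at -0.11.

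Within wild type, cryoinjured hearts had more cebpa, cebpd, cebpg, csf3r and ncf1 mRNA than sham hearts in all libraries, which makes 5 of the 10 members, and 3 of the 6 tested here. The background is large here, since 24.3% of all tested genes were higher without overlap and 3.44% lower. A difference above 0 was found for 74.3% of tested genes, 8 of the 10 members and 5 of the 7 past the filter. The median gene stood at 0.19. That median was -0.03 after median-of-ratios or quantile rescaling, where cebpa stood at 0.82 and 0.83, cebpd at 1.72 and 1.90, and cebpg at 0.26 and 0.34. cebpd differed by 1.98 ± 0.62 (log2, SE; limma adjusted p = 0.456). Its difference was 1.15 without wild-type sham 1, the library with the least cebpd, and 2.61 without wild-type sham 2. cebpg differed by 0.52 ± 0.22 (adjusted p = 0.556). cebpa stood at 1.06 ± 0.29, with no test, because its wild-type sham levels had a part in its choice. With limma, 0 of 13969 genes passed (0%). At an unadjusted p under 0.05, limma had 2 of the 6 tested members (cebpd and cebpg) higher and 0 lower, against 1097 genes higher (7.85%) and 114 lower (0.816%). This comparison shares the wild-type sham libraries with the one from which cebpa was chosen.

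No Cebp factor separated cryoinjured from sham mutants, and 0 of the 10 members did, against 2.05% of tested genes higher and 2.05% lower without overlap. 9 of the 10 members and 6 of the 7 past the filter, all but cebpd, had a difference above 0, as had 52.5% of tested genes. cebpb stood at 0.65 ± 0.41 (log2, SE; limma adjusted p = 1), at 0.26 without mutant sham 1 and at 0.99 without mutant sham 2. cebpg stood at 0.14 ± 0.22 and cebpd at -0.17 ± 0.62. cebpa stood at 0.17 ± 0.29, given as a description because the mutant sham libraries chose it, and at -0.11 without mutant sham 1. With limma 0 genes passed (0%). At an unadjusted p under 0.05, limma had 1 of the 6 tested members (ncf1) higher and 0 lower, against 278 genes higher (1.99%) and 157 lower (1.12%). This comparison shares the mutant sham libraries with the one from which cebpa was chosen. The injury difference in mutants minus that in wild type was -2.16 ± 0.88 for cebpd and -0.89 ± 0.41 for cebpa, where the median tested gene stood at -0.17. Above 0 were 28.3% of tested genes, 5 of the 10 members and 4 of the 7 past the filter. These differences contain the comparison of sham hearts and were not tested.

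**Figure D2:**
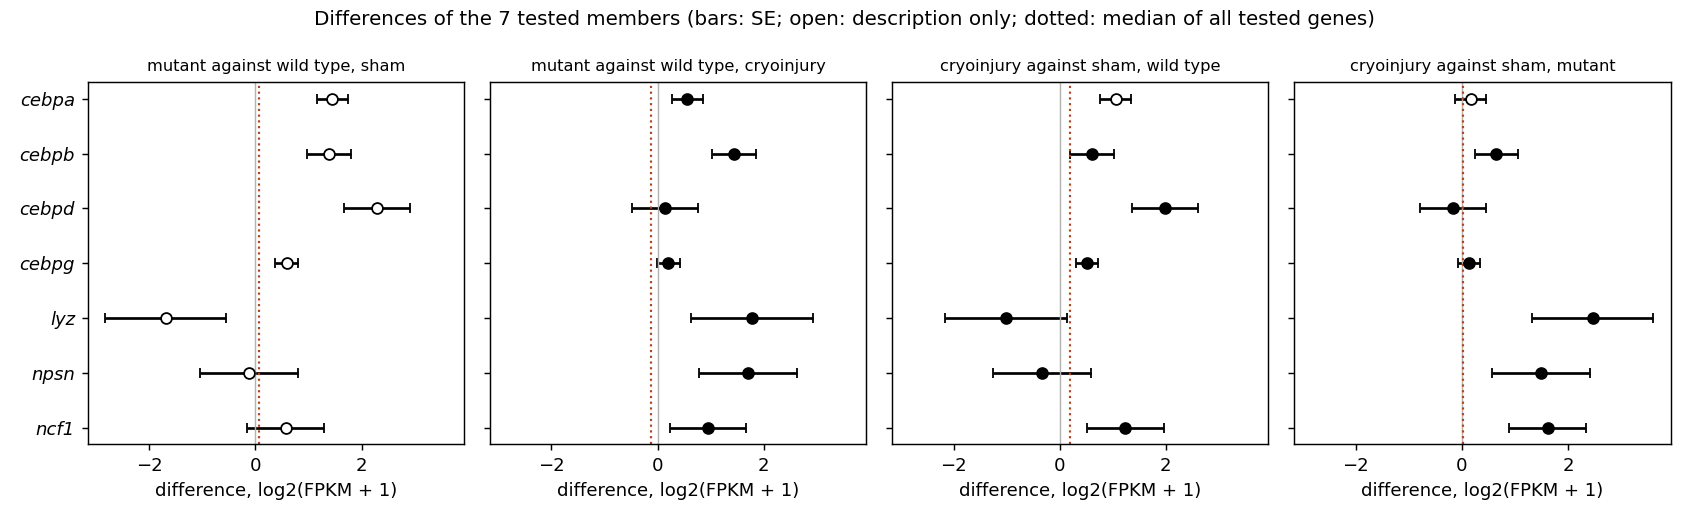
Differences in log2(FPKM + 1) (horizontal axes) of the 7 tested members in 4 comparisons; bars are SE, open points are descriptions without a test, and the dotted line is the median of all tested genes. cebpb lies to the right in both comparisons of genotype (1.39 and 1.43), and lyz changes side between them (-1.69 and 1.78) with wide errors.

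The neutrophil genes were low or moderate in most of these hearts, and for lyz and npsn 1 library stood far above the others. lyz (NCBI gene 677744) encodes lysozyme, which cleaves bacterial cell walls and in zebrafish marks neutrophils and some macrophages. It was at 23.9, 10.5 and 5.25 FPKM in wild-type sham hearts and at 1.80, 5.45 and 11.1 FPKM in wild-type cryoinjured hearts. In mutants it was at 0.87, 1.65 and 9.76 FPKM after sham surgery and at 1.72, 114 and 27.7 FPKM after cryoinjury. Mutant cryoinjury 2 stood far above every other library, while mutant cryoinjury 1 was among the lowest.

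npsn (NCBI gene 404039), which encodes nephrosin, a secreted metalloproteinase of fish neutrophils, followed lyz in the library with the highest value. It was at 4.55, 4.40 and 1.57 FPKM in wild-type sham hearts, 0.94, 1.89 and 5.93 FPKM in wild-type cryoinjured hearts, 0.19, 7.18 and 5.24 FPKM in mutant sham hearts and 3.28, 50.8 and 5.07 FPKM in mutant cryoinjured hearts. Mutant cryoinjury 2 was the only library above 7.18 FPKM.

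The injury differences of both genes moved with single libraries. In wild type, lyz stood at -1.01 ± 1.15 (log2, SE; limma adjusted p = 0.780) and npsn at -0.33 ± 0.93 (adjusted p = 0.924), the latter at 0.07 without wild-type cryoinjury 1. In mutants lyz stood at 2.46 ± 1.15 (adjusted p = 1) and npsn at 1.49 ± 0.93 (adjusted p = 1). Without mutant cryoinjury 2 the mutant values were 1.23 for lyz and 0.37 for npsn. Without mutant cryoinjury 1 lyz stood at 3.93, and without mutant sham 1 npsn stood at 0.63. After cryoinjury, mutants against wild type, lyz differed by 1.78 ± 1.15 and npsn by 1.70 ± 0.93 (adjusted p = 0.873 for both), by 0.55 and 0.59 without mutant cryoinjury 2, and by 3.25 and 2.39 without mutant cryoinjury 1. With lyz at 2.46 in mutants and -1.01 in wild type, the difference of the injury responses was 3.47 ± 1.62, a description for the reason given above.

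ncf1 (NCBI gene 378966) encodes p47phox, the cytosolic organizer of the phagocyte NADPH oxidase, which macrophages also use. Wild-type sham hearts were at 0.69, 2.55 and 0.94 FPKM and wild-type cryoinjured hearts at 4.89, 3.39 and 4.89 FPKM, with no overlap. Mutant sham hearts were at 0.42, 11.9 and 1.09 FPKM and mutant cryoinjured hearts at 10.2, 19.7 and 3.78 FPKM. The mutant sham group held both the lowest level of all and, in mutant sham 2, the second highest. ncf1 differed by 1.24 ± 0.72 (log2, SE) after injury in wild type (limma adjusted p = 0.631) and by 1.62 ± 0.72 in mutants (adjusted p = 1). Averaged over both genotypes, cryoinjured hearts stood at 1.43 ± 0.51 relative to sham hearts (adjusted p = 0.380). Without mutant sham 2 that average was 1.91 (adjusted p = 0.0272), with 428 genes passing in all. With array weights, which give less weight to libraries far from their group, it was 1.66 (adjusted p = 0.0474), with 290 genes passing. Leaving out mutant sham 1 gave 1.12 and leaving out mutant cryoinjury 2 gave 1.18, and neither passed.

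mpx (NCBI gene 337514) encodes the neutrophil granule peroxidase and is the usual marker of zebrafish neutrophils. It was low throughout, at 0.59, 0.15 and 0.06 FPKM in wild-type sham hearts and 2.45, 0.29 and 0.56 FPKM in wild-type cryoinjured hearts. In mutants it was at 0.05, 1.76 and 0.135 FPKM after sham surgery and 2.36, 2.65 and 0.31 FPKM after cryoinjury. The 4 libraries above 1 FPKM came from 3 groups.

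csf3r (NCBI gene 100134935) encodes the receptor for granulocyte colony-stimulating factor. It was at 0.29, 0.68 and 0.49 FPKM in wild-type sham hearts and 1.21, 0.83 and 1.86 FPKM in wild-type cryoinjured hearts, without overlap. Mutant sham hearts were at 0.21, 0.94 and 0.265 FPKM and mutant cryoinjured hearts at 2.07, 1.56 and 0.32 FPKM, with overlap. The 3 members under the filter were fitted when all 24782 genes were kept. There the average injury difference was 0.61 ± 0.22 for csf3r (log2, SE; limma adjusted p = 0.488), 0.69 ± 0.35 for mpx (adjusted p = 0.643) and 0.38 ± 0.21 for cebp1 (adjusted p = 0.680).

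**Figure D3:**
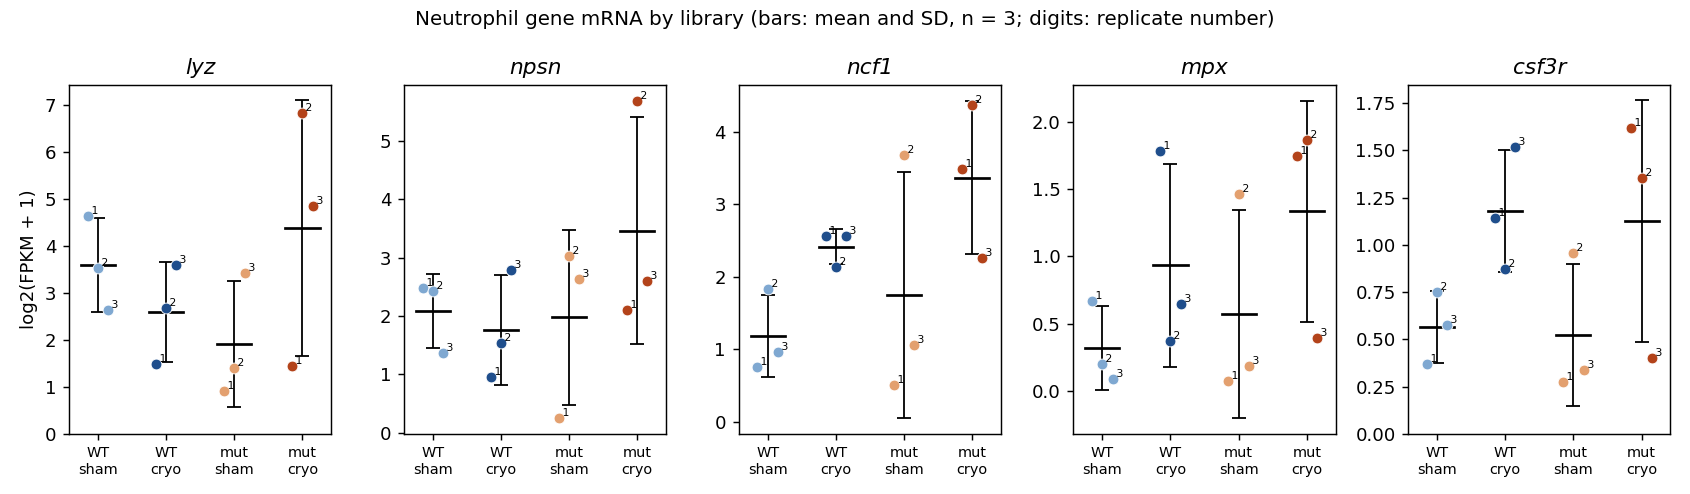
log2(FPKM + 1) of the 5 neutrophil genes (vertical axes, 1 scale per gene) in the 4 groups; points are libraries with their replicate number, and bars give the mean and SD (n = 3). Mutant cryoinjury 2 is the highest library for lyz (114 FPKM), npsn (50.8), ncf1 (19.7) and mpx (2.65), but not for csf3r, where mutant cryoinjury 1 leads (2.07).

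Averaged over both genotypes, all 10 members had a mean log2 difference above 0 after cryoinjury, where 68% of tested genes did, and 0 of the 10 separated the 6 cryoinjured from the 6 sham libraries (0.43% of tested genes were higher without overlap). None of the 6 members tested there passed limma's adjusted threshold, which 9 of 13969 genes (0.0644%) passed. Of the 6, limma had 1 (ncf1) higher and 0 lower at an unadjusted p under 0.05. Among all tested genes 1151 were higher (8.24%) and 204 lower (1.46%) at that level. The other Cebp factors stood at 0.63 ± 0.29 for cebpb (adjusted p = 0.525), 0.90 ± 0.44 for cebpd (adjusted p = 0.542) and 0.33 ± 0.15 for cebpg (adjusted p = 0.527; log2, SE). lyz stood at 0.73 ± 0.81 and npsn at 0.58 ± 0.65 (adjusted p = 0.813 and 0.816). Without mutant cryoinjury 2 these values were 0.11 for lyz and 0.023 for npsn, and without mutant cryoinjury 1 they were 1.46 and 0.92. Without mutant sham 1, npsn stood at 0.15.

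The neutrophil genes did not rank the libraries alike. lyz was lowest, at 0.87 to 1.80 FPKM, in mutant sham 1, mutant sham 2, mutant cryoinjury 1 and wild-type cryoinjury 1. The last 3 of these had mpx at 1.76 to 2.45 FPKM, among the 4 highest. Wild-type sham 1 showed the reverse, with lyz at 23.9 FPKM, the third highest, and mpx at 0.59 FPKM. ncf1 was highest in the 3 libraries with the largest macrophage sums. These were mutant sham 2 (2211 FPKM summed, ncf1 at 11.9), mutant cryoinjury 2 (1400, 19.7) and mutant cryoinjury 1 (1334, 10.2). It was lowest in mutant sham 1 (185, 0.42) and wild-type sham 1 (243, 0.69). This was not particular to ncf1. The 4 libraries with the highest mpx were the same 3 and wild-type cryoinjury 1, whose macrophage sum came next (1155 FPKM). csf3r was highest in those 4 and in wild-type cryoinjury 3, the next again (1057 FPKM).

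**Figure D4:**
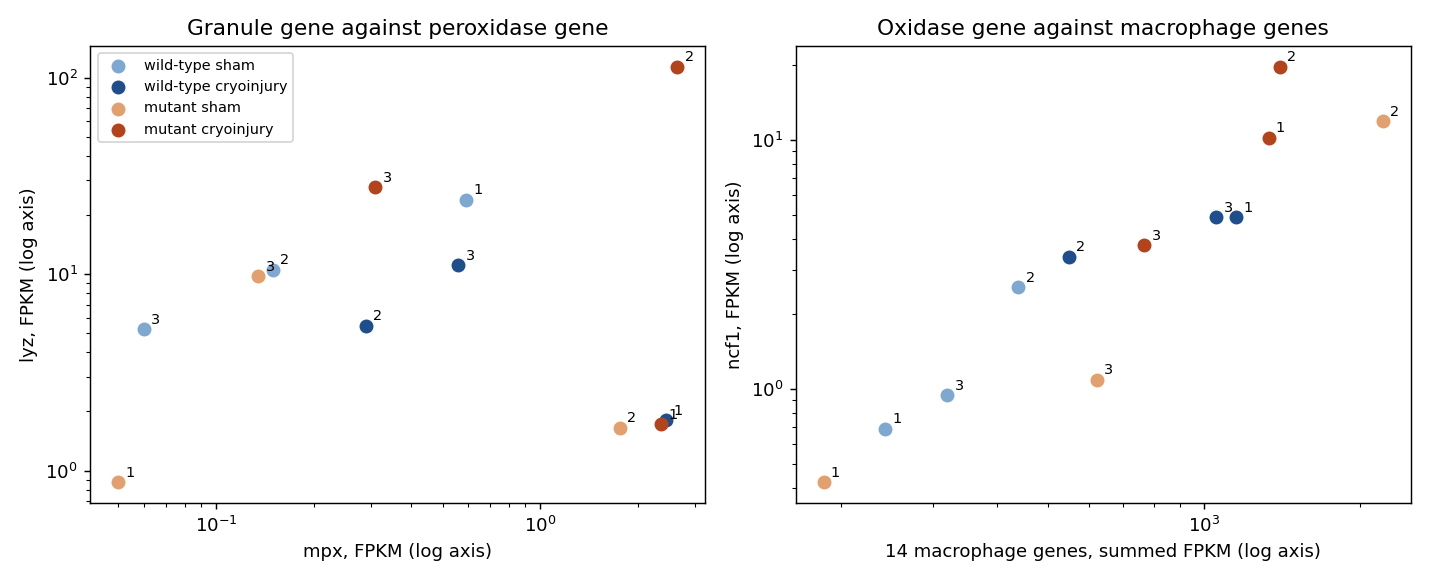
Left, lyz against mpx; right, ncf1 against the summed FPKM of 14 macrophage genes (all axes FPKM, logarithmic; points are libraries, coloured by group, with replicate numbers). Wild-type cryoinjury 1, mutant cryoinjury 1 and mutant sham 2 combine mpx of 1.76 to 2.45 FPKM with lyz of 1.65 to 1.80 FPKM, and ncf1 is at 10.2 FPKM or more only in the 3 libraries with the largest macrophage sums.

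Other genes linked to neutrophils were followed in lists of 4 kinds. Of 11 granule and effector genes 8 were tested, with 7 higher and 1 lower after injury on average (median 0.21, against 0.10 for all tested genes). alox5ap, which helps make leukotrienes, stood at 0.58 ± 0.24 (limma adjusted p = 0.461), and the metalloproteinase genes mmp9 and mmp13a at 0.60 ± 0.31 and 0.49 ± 0.41 (adjusted p = 0.562 and 0.741). lect2l, encoding a leukocyte-derived chemotaxin and named after its values were seen, was at 34.7 FPKM in mutant cryoinjury 2, at 23.0 FPKM in mutant sham 2 and between 0.08 and 4.60 FPKM elsewhere. All 6 other NADPH oxidase genes were tested and stood higher (median 0.53). Among them were the GTPase gene rac2 (1.102 ± 0.38, adjusted p = 0.370), cybc1, a chaperone of the oxidase (0.44 ± 0.20, 0.498), and cybb, its catalytic subunit (0.62 ± 0.33, 0.578).

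Of 10 genes of granulocyte and macrophage formation 7 were tested, irf8 among them, with 6 higher and 1 lower (median 0.45). spi1b, encoding the myeloid factor Pu.1, stood at 1.13 ± 0.32 (limma adjusted p = 0.275), runx1 at 0.45 ± 0.18 (0.454) and spi1a, a related factor, at 0.63 ± 0.32 (0.563). csf3b, a ligand of Csf3r, was between 10.9 and 27.5 FPKM in all libraries. Of 13 recruitment genes 11 were tested, with 9 higher and 2 lower (median 0.54). The chemokine gene cxcl12a stood at 0.91 ± 0.28 (0.317), its receptor gene cxcr4b at 0.86 ± 0.42 (0.547) and lta4h, of leukotriene B4 synthesis, at 0.55 ± 0.27 (0.553). The neutrophil receptor genes cxcr1 and cxcr2 were at or under 0.31 FPKM in every library. The ligand cxcl8a was at 19.1 FPKM in mutant cryoinjury 1 and 9.92 FPKM in mutant sham 2, at 3.10 FPKM in mutant cryoinjury 2 and at or under 0.75 FPKM elsewhere. Its relatives cxcl8b.3 and cxcl8b.1 were instead highest in mutant sham 3 (16.0 and 5.66 FPKM), where cxcl8a was at 0. In the other libraries they were at or under 4.39 and 3.38 FPKM. csf3b, cxcl8a, cxcl8b.1, cxcl8b.3, cxcr1 and cxcr2, like myl7 above and plin1, fabp11a and lpl below, were named after their values were seen.

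All 9 genes listed for Cebp partners and the linked stress response were tested and stood higher on average (median 0.22). Among them were atf4a at 0.23 ± 0.14, ddit3, which encodes the C/EBP homologue Chop, at 0.52 ± 0.33, and atf4b at 0.26 ± 0.18 (limma adjusted p = 0.645, 0.648 and 0.676). Within wild type 8 of the 9 were higher and 1 lower (median 0.36), and within mutants 6 were higher and 3 lower (median 0.003). Over all 12 lists, 88 of 117 genes were tested and 0 passed limma in the average injury comparison, with 20 higher and 2 lower at an unadjusted p under 0.05 (8.24% and 1.46% of all tested genes). In wild type 0 of the 88 passed, with 19 higher and 0 lower at an unadjusted p under 0.05 (7.85% and 0.816% of all tested genes). In mutants 0 passed, with 5 higher and 2 lower (1.99% and 1.12%). Between genotypes after cryoinjury 0 passed, with 3 higher and 0 lower (1.22% and 3.81%).

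Markers of other cell types were followed in the same way. All 13 tested macrophage genes of 14 stood higher after injury on average (median 1.30), with havcr1 at 1.40 ± 0.29, mpeg1.1 at 1.39 ± 0.44 and mfap4 at 1.85 ± 0.61 (limma adjusted p = 0.141, 0.318 and 0.347). Their summed FPKM ranged from 243 to 439 in wild-type sham, from 550 to 1155 in wild-type cryoinjured, 185 to 2211 in mutant sham and 767 to 1400 in mutant cryoinjured hearts, and 0 of the 14 were at 0 throughout a group. The 6 epicardial genes stood higher on average (median 0.58). Among them were wt1b at 1.37 ± 0.25, aldh1a2 at 1.00 ± 0.30 and wt1a at 0.73 ± 0.29 (limma adjusted p = 0.0777, 0.300 and 0.439). Within wild type 6 epicardial genes were higher and 0 lower after injury (median 1.07), and within mutants 3 were higher and 3 lower (median 0.198). Their sums ranged from 72.6 to 131 FPKM in wild-type sham, from 159 to 240 in wild-type cryoinjured, 117 to 236 in mutant sham and 163 to 291 in mutant cryoinjured hearts. Their part in the levels of the Cebp factors and of ncf1 was not tested.

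Of 14 liver genes 5 were tested. tfa, the transferrin gene, stood at 1.58 ± 0.51 after injury (limma adjusted p = 0.335). fabp10a and apoa2, of hepatocytes, stood at -1.77 ± 0.64 and -1.29 ± 0.48 (0.395 and 0.407), with fabp10a at 0 to 20.2 FPKM across libraries. In wild-type sham hearts fabp10a was at 0, 0.91 and 20.2 FPKM and apoa2 at 0, 0.15 and 9.36 FPKM, so 1 library carried both there. Mutant sham hearts had fabp10a at 3.42, 5.08 and 15.1 FPKM. Of 9 genes listed as adipocyte genes 6 were tested, with 4 higher and 2 lower (median 0.13). Among them lepb stood at 1.39 ± 0.33 (0.172), pparg at 0.22 ± 0.22 (0.781) and plin2 at 0.11 ± 0.14 (0.842). lepb was at 0 in all wild-type sham libraries, wild-type cryoinjury 2, mutant sham 1 and mutant sham 3. It was at 0.35 FPKM in mutant sham 2 and between 1.12 and 4.65 FPKM in the other libraries. Which cells carried lepb mRNA was not tested. In that list plin1, which coats fat droplets, was at or under 0.10 FPKM, and fabp11a was between 573.5 and 1712 FPKM. Also in that list, lpl was at 353 FPKM in mutant sham 1, 240 FPKM in mutant cryoinjury 2 and between 9.71 and 44.1 FPKM elsewhere. Of 9 lymphocyte genes 1 was tested, cd79a (0.13 ± 0.29, 0.920). All 8 erythroid genes stood higher (median 0.53), with alas2 at 0.87 ± 0.51, epor at 0.49 ± 0.29 and hbaa1 at 0.74 ± 0.50 (0.609, 0.614 and 0.674). Their sums ranged from 12875 to 131404 FPKM within wild-type sham hearts, where wild-type sham 3 was the highest of all libraries. They ranged from 31250 to 92465 FPKM in wild-type cryoinjured, 19359 to 51882 in mutant sham and 41709 to 59294 in mutant cryoinjured hearts. The 8 cardiomyocyte genes had a median of -0.03, with vmhc at 0.55 ± 0.34, tnnt2a at -0.27 ± 0.20 and actc1a at -0.22 ± 0.26 (0.639, 0.699 and 0.824). That average joins unlike directions. Within wild type 1 cardiomyocyte gene was higher and 7 lower after injury (median -0.22), and within mutants 6 were higher and 2 lower (median 0.18). Their sums ranged from 66550 to 77338 FPKM in wild-type sham hearts, above every other group. They ranged from 48172 to 62745 FPKM in wild-type cryoinjured, 41914 to 56639 in mutant sham and 38320 to 62722 in mutant cryoinjured hearts. Between genotypes in sham hearts their median difference was -0.60, a description without a test.

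**Figure D5:**
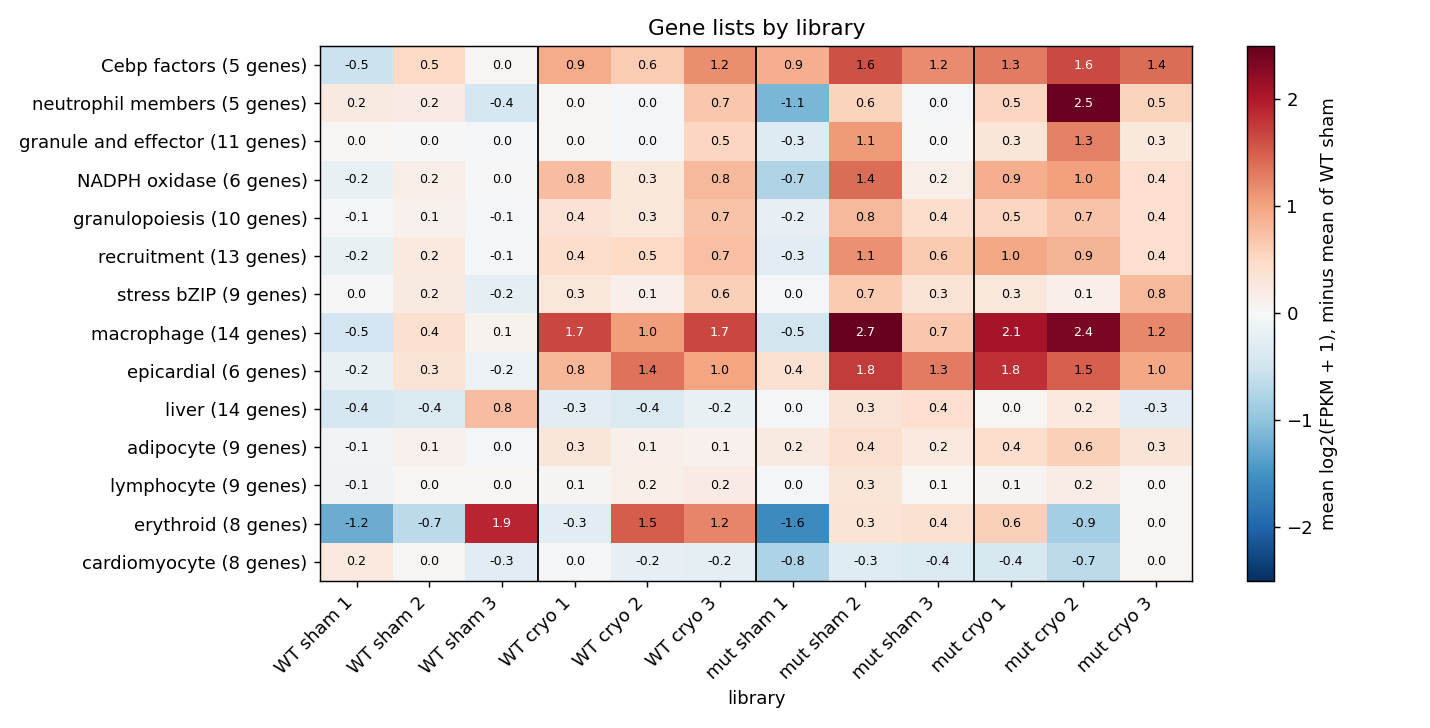
Mean log2(FPKM + 1) of each gene list in each library (columns), minus the mean of the 3 wild-type sham libraries (colour and printed value; rows are the 14 lists with their gene number). The macrophage genes lie lowest in wild-type sham 1 and mutant sham 1 (-0.47 and -0.46) and highest in mutant sham 2 (2.65), and the neutrophil members lie between -1.15 and 2.47. The sham columns hold the values from which cebpa was chosen.

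The tested genes whose log2(FPKM + 1) was most like cebpa over the 12 samples were slc22a2, an organic cation transporter gene (Pearson r = 0.957, Spearman rho = 0.951), plpp3, a lipid phosphatase gene (0.950 and 0.846), kdm6al, related to histone demethylases (0.948 and 0.958), lpar5a, a lysophosphatidic acid receptor gene (0.946 and 0.902), and LOC100149436 (0.938 and 0.944). Those most like mpx were rbm14b, an RNA-binding protein gene (r = 0.935, rho = 0.867), selplg, encoding the selectin ligand of leukocytes (0.917 and 0.790), tnfb, a tumour necrosis factor gene (0.904 and 0.725), asah1b, an acid ceramidase gene (0.898 and 0.853), and chia.6, a chitinase gene (0.896 and 0.902). None of these 10 is a member or stands in a list above. Only tested genes with a symbol were searched, and as the highest of them over 12 samples of 4 groups such values are a description only.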

How the data were processed

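The authors deposited FPKM values, 1 per gene and library. Per the submitters' processing notes, HISAT, Bowtie2 and the genome build GRCz11 were used, and their versions, their order and the program behind the FPKM were not given in the sources used here. Trizol RNA went into low-input poly-A libraries for the BGISEQ-500, per the labels' protocols. FPKM of all genes fall where a few transcripts take a larger share. 13 value columns carried a sample's name, and 1 other column was not used. The column taken for mutant cryoinjury 1 had another suffix than those of the other samples and was matched by its name alone. The 2 columns of mutant sham 3 differed by a median of 0.017 (log2), against 0.212 to 0.673 between replicates, and were averaged as 1 sample.

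log2(FPKM + 1) understates changes of low genes. It was fitted in R 4.3.3 with limma 3.58.1 over all 12 samples (a mean per group, intensity trend) with Benjamini-Hochberg adjustment at 0.05, tested on simulated data. Members were tested only in this fit across all genes. cebpa was left out of the tests that hold sham libraries, in wild-type injury only after its result was seen. Members and lists were chosen with earlier results of these data known. Of 131 list symbols, 117 matched the file and 10 matched through a RefSeq gene table of another build, 2 were second names of listed genes and 2 had no match. Named genes are the members, yap1, up to 3 genes per list with the lowest p in the average injury comparison, and the 5 genes most like cebpa and mpx. myl7, plin1, fabp11a, lpl, lect2l, csf3b, cxcl8a, cxcl8b.1, cxcl8b.3, cxcr1 and cxcr2 were named after their values were seen. Alternatives were a smaller pseudocount (0.1), a filter at 5 FPKM or none, 3 rescalings, only the groups compared, array weights, a replicate block and leaving out each sample. No sequences were used here.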

Additional observations from a re-analysis of the deposited data

How the results depend on the processing

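Each of 25 tested member comparisons was refitted under 23 other settings, and 562 of the 575 refits kept direction and side of the threshold. Many of these refits could not turn a direction, so that number is no measure of robustness. A difference stays the same when a library outside its comparison is left out. It also stays the same with another filter, with only the groups compared or with the replicate block. Of the tested members, 0 passed in any comparison. That number was 1 with array weights in the average injury comparison (ncf1), and 0 to 1 there without single libraries, the 1 being ncf1 without mutant sham 2. Over all genes, 409 passed with array weights in wild-type injury in place of 0, and 290 in average injury in place of 9, where 428 passed without mutant sham 2. In sham hearts 5 of the 7 members past the filter stood higher in mutants, and 4 to 7 without single libraries, where the filter kept 7 or 8 members. The difference of injury responses was above 0 for 4 of the 7. It was above 0 for 2 to 5 of the 7 or 8 kept without single libraries (2 of 8 without mutant sham 1, 5 of 8 without mutant cryoinjury 3), and for 1 of 7 when mutant sham 1 and mutant cryoinjury 2 were both left out, a choice made after seeing the data. With the latter pair left out, npsn stood at -0.49 in mutant injury and -0.41 in average injury, lyz at -0.14 in average injury and cebpd at -0.092 between genotypes after cryoinjury. Without mutant sham 1 and 2, also chosen after seeing the data, lyz stood at -0.031 in average injury. Signs also turned among the values without single libraries, which ranged from -0.85 to 0.073 for npsn in wild-type injury, from -0.44 to 0.18 for cebpd and from -0.011 to 0.34 for cebpg in mutant injury, and from -0.16 to 0.49 for cebpd between genotypes after cryoinjury. The cause of these turns was not tested. Replicate numbers were not used to pair the samples in the main fit. Of 18 same-number pairs 3 had deviations correlated above 0.1 (range -0.205 to 0.326). Pairs of different numbers were not compared, so whether same-number samples were handled together was not tested. With the replicate block 0 members passed in each tested comparison, and in average injury 3 genes passed in place of 9. Levels near 1 FPKM, as of mpx, rest on few fragments, whose number was not used here.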
